A study of Homo sapiens with 2 samples.

Results

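The SLC25 family comprises the mitochondrial solute carriers, and its RNAs were examined in the deposited peak list of a CRTC2 RNA immunoprecipitation (RIP) from HCCLM3 cells, an established human hepatocellular carcinoma line of wild-type genotype. Members were the peaks whose gene symbol is SLC25A followed by a number. The gene was that of the exon or intron named for the peak, and otherwise the gene with the nearest start site, so promoter-class peaks were included. The rule gave 401 of 175546 peaks, in 43 of the 48 SLC25 genes that the RefSeq table lists under such a symbol. Family members under other symbols, the UCP and MTCH genes, fall outside the rule. The study set 1 CRTC2 RIP library against 1 input library of the same cells, with no replicate, and no precipitation with a control antibody was analysed here. Both libraries were made from total RNA and carry the same labels for line, tissue and genotype. With 1 library a group there is no replicate check and no test. Every interval below is a 95% interval that covers counting error only, and says nothing of the spread between experiments. Intervals of the ratio of RIP over input cover the error of the RIP count alone, with the input held fixed. A peak is in the list only where RIP exceeded input, so ratios above 1 are built in. Peaks named below for a high ratio were chosen further by the same values. The intervals make no allowance for either choice.

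SLC25 proteins are transporters of the mitochondrial inner membrane, with a few members in peroxisomes or the outer membrane. They exchange nucleotides, phosphate, carboxylates, amino acids, cofactors and metal ions between the cytosol and the matrix, and all are encoded in the nucleus. In liver they serve the malate-aspartate shuttle, the urea cycle, citrate export for lipid synthesis and the entry of acylcarnitines for oxidation. CRTC2 is a coactivator of the transcription factor CREB, which binds the cAMP response element in promoters of genes of fasting metabolism. In this assay CRTC2 was precipitated with the RNA bound to it.

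The cAMP response element in its full form is TGACGTCA, which reads the same on both strands. RefSeq promoter windows (GRCh38.p14, 250 bases before to 50 after a start site) were matched by symbol for 40 SLC25 genes, in 51 windows. The full element was in 3 of the 51 windows (5.88%), against 649 of 35116 windows of all genes (1.85%). By gene it was in 3 of 40 (7.5%), against 2.25% of all genes with a window. A count of 3 is small, some genes have several windows, and the difference was not tested. The 3 windows belong to SLC25A25, a carrier of ATP-Mg and phosphate, and to SLC25A33 and SLC25A36, which carry pyrimidine nucleotides. They are shown because CREB sites are the known DNA targets of CRTC2 complexes, with the element in capitals:
SLC25A25: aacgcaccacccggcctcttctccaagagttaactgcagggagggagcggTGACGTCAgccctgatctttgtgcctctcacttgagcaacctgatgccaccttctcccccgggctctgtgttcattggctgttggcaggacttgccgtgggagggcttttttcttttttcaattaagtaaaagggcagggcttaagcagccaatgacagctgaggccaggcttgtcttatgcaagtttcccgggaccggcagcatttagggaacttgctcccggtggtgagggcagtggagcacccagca
SLC25A33: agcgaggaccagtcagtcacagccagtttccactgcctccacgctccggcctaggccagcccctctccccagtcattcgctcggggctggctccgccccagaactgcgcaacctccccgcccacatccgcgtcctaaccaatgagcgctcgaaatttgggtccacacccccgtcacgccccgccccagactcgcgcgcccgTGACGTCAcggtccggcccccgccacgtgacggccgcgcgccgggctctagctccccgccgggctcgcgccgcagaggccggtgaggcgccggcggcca
SLC25A36: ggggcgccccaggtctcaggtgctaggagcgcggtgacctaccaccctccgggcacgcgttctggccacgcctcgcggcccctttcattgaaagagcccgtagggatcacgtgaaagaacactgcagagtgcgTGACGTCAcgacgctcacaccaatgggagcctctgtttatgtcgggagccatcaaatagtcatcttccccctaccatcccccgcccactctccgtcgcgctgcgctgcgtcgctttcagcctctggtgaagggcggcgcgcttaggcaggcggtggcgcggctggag
The windows lie at chr9:128098257-128098556, chr1:9539215-9539514 and chr3:140941586-140941885, all on the plus strand. The element began 200 bases before a start site of SLC25A25 at chr9:128098507. It began 49 bases before the start site of SLC25A33 and 117 bases before that of SLC25A36. SLC25A25 also has windows at start sites chr9:128068232 and chr9:128091455, and neither held the full element. The short form of the element, TGACG or its complement CGTCA, was in 17 of the 51 windows (33.3%), against 24.6% of all windows, counting windows that hold the full element. Windows of SLC25A13, the carrier with the most peaks, and of SLC25A3, the carrier with the most fragments, hold this short form, which is in capitals here:
SLC25A13: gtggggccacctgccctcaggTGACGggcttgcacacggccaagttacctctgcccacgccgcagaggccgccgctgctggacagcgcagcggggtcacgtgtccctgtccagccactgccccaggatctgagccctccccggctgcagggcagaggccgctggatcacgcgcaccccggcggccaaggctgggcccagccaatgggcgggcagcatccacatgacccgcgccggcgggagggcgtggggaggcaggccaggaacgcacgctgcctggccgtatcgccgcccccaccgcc
SLC25A3: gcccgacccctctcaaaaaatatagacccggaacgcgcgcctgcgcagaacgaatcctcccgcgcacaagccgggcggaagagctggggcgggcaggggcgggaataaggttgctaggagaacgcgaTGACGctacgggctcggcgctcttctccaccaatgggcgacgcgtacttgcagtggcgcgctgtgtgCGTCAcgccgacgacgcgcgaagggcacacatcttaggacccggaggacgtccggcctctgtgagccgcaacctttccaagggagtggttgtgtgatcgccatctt
These lie at chr7:96322049-96322348 on the minus strand and at chr12:98593436-98593735 on the plus strand. A match of letters is a description of the window. The RNA peaks over the full-element windows held few fragments. SLC25A25 had 2 RIP fragments against an input level of 0.0982 scaled input fragments there, a fold of 2.73 (1.13 to 7.49), SLC25A36 had 4 against 1.90, a fold of 1.72 (0.720 to 3.88), and no peak overlapped the SLC25A33 window.

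Each peak carries a fold, the authors' value for RIP over input at the summit, together with a p-value and a q-value of the peak caller. The fold equals RIP fragments plus 1, divided by input level plus 1, and both terms were recovered from the fold and the p-value. The input level is the local number of input fragments scaled to the RIP library, on which 1 input fragment counts as 0.634. Where the input had no fragment nearby, the level went down to 0.0298. SLC25 peaks held few fragments. The median peak had 2 RIP fragments (quartiles 1 and 3, highest 28), against 2 over all peaks (quartiles 1 and 4, highest 49). A single RIP fragment made up 196 of the 401 SLC25 peaks (48.9%, exact Clopper-Pearson interval 43.9 to 53.9), against 46.2% of all peaks. Folds of the SLC25 peaks ran between 1.44 and 5.27. Their median was 1.89 (order-statistic interval 1.87 to 1.92), against 1.89 for all peaks. Peaks on 1 fragment ran only between folds of 1.48 and 1.94 in the whole list. With so many of them in both sets the medians had little room to differ, so their likeness does not place the family.

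At a q of at most 0.05, 4 of the 401 SLC25 peaks were called (0.998%, exact interval 0.272 to 2.53), against 1.63% of all peaks. By gene these were 4 of 43 SLC25 genes with an assigned peak (9.30%, 2.59 to 22.1), against 11.3% of all such genes. At a fold of at least 4 there were 3 peaks (0.748%), against 1.63% of all, and 3 genes (6.98%), against 11.3%. The intervals of all 4 shares include the background share. The called peaks belonged to SLC25A13 and SLC25A12, the paired aspartate/glutamate carriers, to SLC25A41, a carrier of ATP-Mg and phosphate, and, by assignment, to SLC25A31, the testis ADP/ATP carrier.

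**Figure D1:**
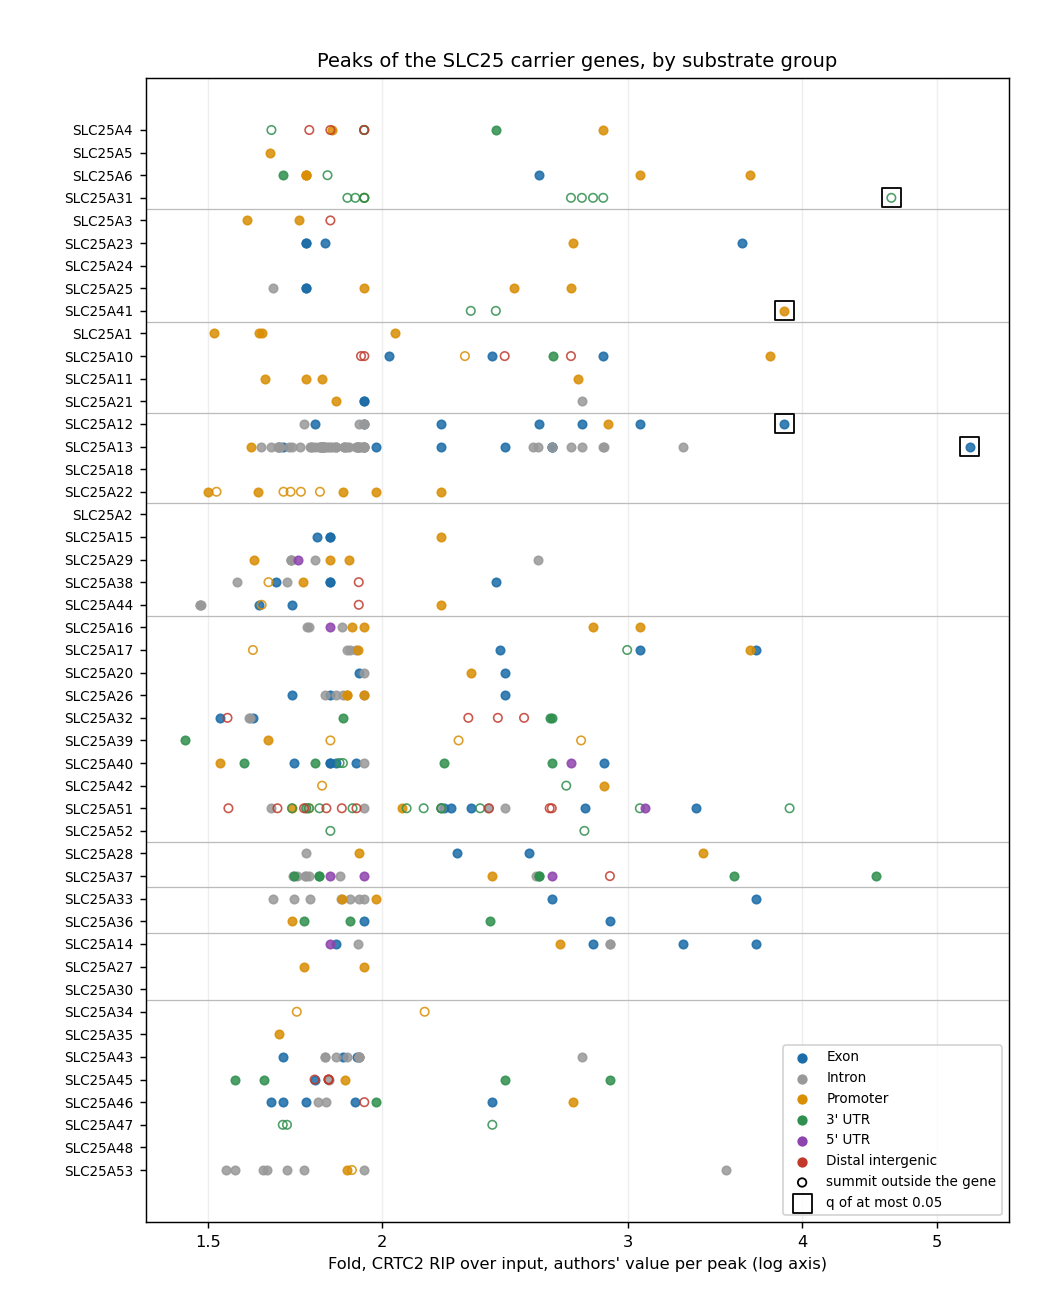
Each point is 1 of 388 peaks in 42 genes, those whose values are reported, placed by the authors' fold of CRTC2 RIP over input (horizontal log axis, no unit) and by SLC25 gene (rows, in 10 substrate groups set apart by grey lines). Colour gives the annotation class, open points have their summit outside the gene, and squares mark the 4 peaks at a q of at most 0.05; most points lie under a fold of 3.

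**Figure D2:**
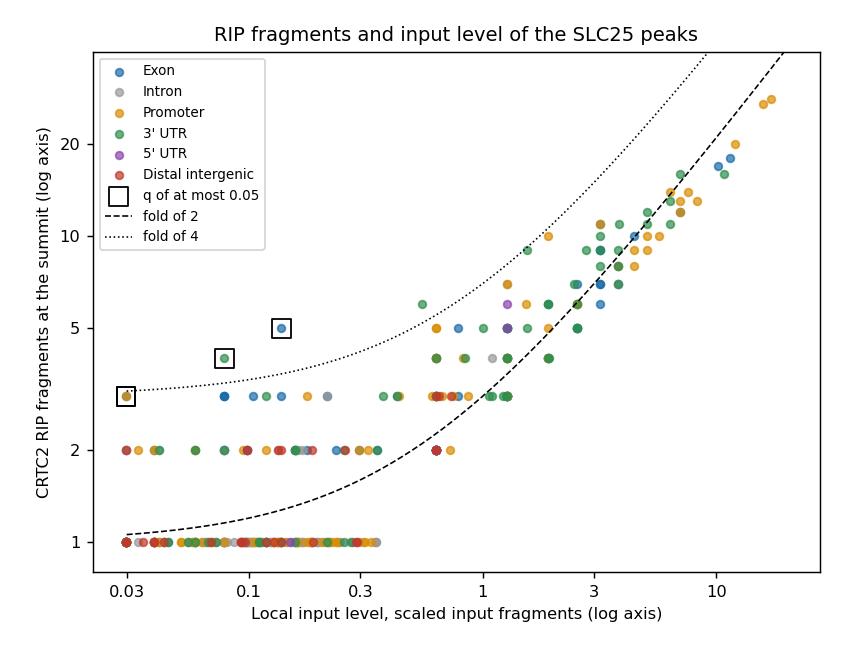
RIP fragments at the summit (vertical log axis) are plotted against the local input level in scaled input fragments (horizontal log axis) for the 401 SLC25 peaks, with lines at folds of 2 and 4. The peaks called at a q of at most 0.05 rest on 3 to 5 fragments over input levels between 0.0298 and 0.137, and the peaks with 20 or more fragments lie below the line for a fold of 2.

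The fold did not follow the number of fragments in 1 direction. The 196 SLC25 peaks with 1 fragment had a median fold of 1.82 and a highest fold of 1.94, and none was called. A fold of 1.94 is the ceiling for 1 fragment, set by the lowest input level. None of the 81036 such peaks of the whole list was called either. The 129 with 2 to 4 fragments had a median fold of 2.45, the same as over all such peaks, and 3 were called (2.33%), against 2.49% of all such peaks. The 51 with 5 to 9 fragments had a median fold of 2.32, against 2.16 over all such peaks, and 1 was called (1.96%), against 3.91%. The 25 SLC25 peaks with 10 or more RIP fragments, listed for 13 genes, had a median fold of 1.76 over a median input level of 6.34, and none was called. The 14690 such peaks of the whole list had a median fold of 1.81, and 3.40% were called. SLC25A3, SLC25A5, SLC25A1, SLC25A32 and SLC25A39 are among these 25, and their values are given with their groups below.

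Both aspartate/glutamate carriers had a called peak of the exon class. They pass aspartate out of the matrix in exchange for glutamate, and they are the calcium-regulated members of the malate-aspartate shuttle. SLC25A13 (citrin) is the main form in liver and also supplies aspartate to the urea cycle. Its called peak lay in exon 10 of 18, at chr7:96184925-96184993 (hg38), with 5 RIP fragments against an input level of 0.137. The fold was 5.27 (2.31 to 11.1) and the −log10 q was 2.80, the highest values of the family. SLC25A12 (aralar), the form of brain and muscle, had 3 fragments against an input level of 0.0298 in a peak at chr2:171794239-171809756, named for exon 13 of 18. Its fold was 3.88 (1.57 to 9.48) and its −log10 q 2.37. That peak was 15518 bp wide and so also covered introns. A second SLC25A12 exon peak, in exon 3, had 4 fragments against 0.634, a fold of 3.06 (1.28 to 6.88), and was not called. Of the glutamate carriers, SLC25A22 had promoter-class peaks with folds of at most 2.21, and SLC25A18 had no linked peak.

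SLC25A13 held 64 peaks, 16.0% of the family's, against 12 for SLC25A12. Introns held 55 of them, which is 42.3% of all SLC25 intron peaks, in 9 introns. Of these intron peaks 46 rested on 1 RIP fragment, 8 on 2 and 1 on 3, and 27 were 31 bp wide, the narrowest width in the list. Their folds ran between 1.64 and 3.29, with a median of 1.84. The exon peaks were fewer and held more fragments. They lay in 8 exons, 1 peak each, on 3 to 7 fragments (median 5), with folds between 1.70 and 5.27 (median 2.33). The promoter peak had the most fragments of the gene, 20 against an input level of 12.04, and a fold of only 1.61 (1.01 to 2.45).

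**Figure D3:**
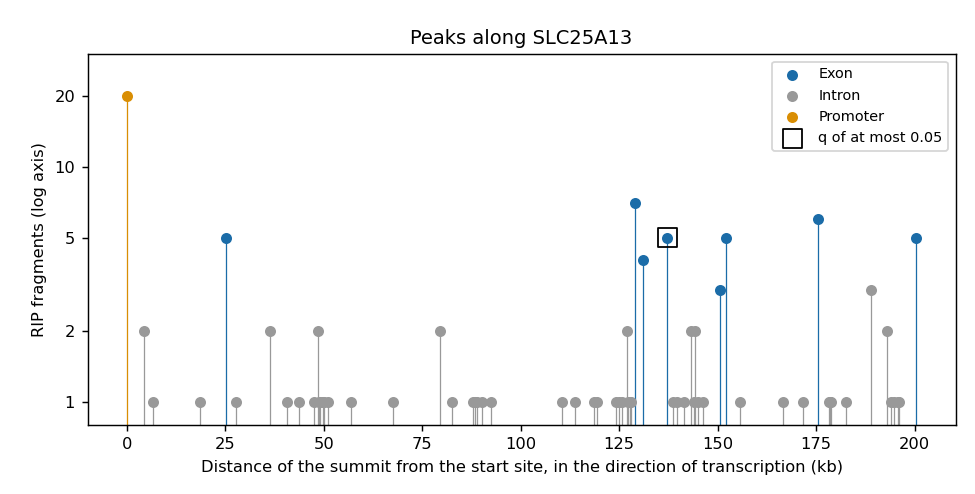
The 64 peaks of SLC25A13 are drawn by the distance of the summit from the start site in kb (horizontal axis, in the direction of transcription) and by RIP fragments (vertical log axis), coloured by class. Most intron peaks stand at 1 fragment, the 8 exon peaks stand at 3 to 7, and the square marks the called peak in exon 10.

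Summits of any assignment were also counted by gene span. SLC25A13 held 66 summits in 201879 bp, or 32.7 per 100 kb; the 2 beyond its own were listed under MIR591. Its neighbours DYNC1I1 and SEM1 had 0.888 and 7.45 per 100 kb, while PON2 had 39.8 and SDHAF3 10.9. Among 2852 protein-coding genes of 0.5 to 2 times its length, the median was 14 summits (quartiles 1 and 29), and 79 genes (2.77%) had as many as SLC25A13. SLC25A12 held 14 summits, or 12.6 per 100 kb. Over the 41 SLC25 genes with a summit, Spearman's rho between gene length and number of summits was 0.61, against 0.52 over 13234 protein-coding genes. These are correlations across genes of the same 2 libraries, and genes are not independent replicates.

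**Figure D4:**
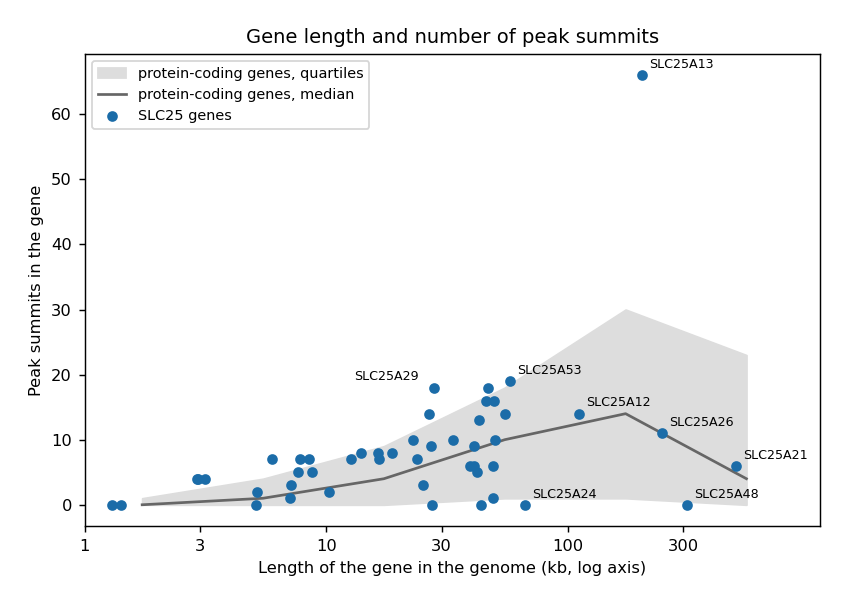
The number of peak summits in each of the 48 SLC25 genes (points, vertical axis) is plotted against the length of the gene in kb (horizontal log axis), over the median (line) and quartiles (grey band) of protein-coding genes in bins of length. SLC25A13, with 66 summits, stands above the band, and SLC25A48 and SLC25A24 have none.

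Carriers of phosphate and of ADP and ATP had the peaks with the most RIP fragments of the family, over high input levels. SLC25A3 brings in the phosphate used for ATP synthesis. Its start-site peak at chr12:98593704-98594144 had 28 fragments, the most of the family, against an input level of 17.1, a fold of 1.60 (1.08 to 2.29). A further promoter-class peak of SLC25A3 had 14 against 7.60, a fold of 1.74 (1.01 to 2.85). In the span of SLC25A3, 5 more summits were listed under SNORA53. SLC25A5, an ADP/ATP carrier of growing cells, had 27 fragments against 15.8, a fold of 1.66 (1.12 to 2.39), at chrX:119468489-119468648. That was the single peak linked to SLC25A5, and 3 more summits in the gene were listed under its antisense neighbour SLC25A5-AS1. The list holds no strand, so reads of the gene and of the antisense RNA cannot be told apart.

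SLC25A4, the ADP/ATP carrier of heart and muscle, had higher folds on fewer fragments. Its 3 peaks with a summit in the gene had 11, 6 and 9 fragments against input levels of 3.17, 1.90 and 4.44. The folds were 2.88 (1.56 to 4.96), 2.41 (1.10 to 4.85) and 1.84 (0.941 to 3.33), and none was called. SLC25A6 lies in the pseudoautosomal region shared by X and Y, and its 8 peaks are listed on Y. A promoter-class peak there had 5 fragments against 0.634, a fold of 3.67 (1.61 to 7.75), and exon 3 of 4 had 2 against 0.157, a fold of 2.59 (1.07 to 7.11).

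The called peak listed under SLC25A31 lies in a different gene. It is a 3′ UTR peak at chr4:127724051-127724573 with 4 fragments against 0.0786, a fold of 4.64 (1.94 to 10.4) and a −log10 q of 2.45. Its summit, like those of all 10 peaks listed for SLC25A31, falls in the neighbour INTU, which encodes a planar cell polarity effector. No summit fell in SLC25A31 itself. The 3′ UTR rows of the list name a UTR of any gene and then the gene with the nearest start site, and for SLC25 this placed only 26 of 68 3′ UTR peaks in their own gene.

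Among the ATP-Mg/phosphate carriers, SLC25A41 had the called peak. It covered 5728 bp at chr19:6429768-6435495, with 3 fragments against 0.0298, a fold of 3.88 (1.57 to 9.48) and a −log10 q of 2.37. The other 2 peaks listed for SLC25A41 had their summits in the adjoining SLC25A23, a calcium-regulated carrier of the same group. SLC25A23 itself had 3 fragments against 0.104 in exon 4 of 10, a fold of 3.62 (1.47 to 8.85) and a −log10 q of 0.893, and was not called. SLC25A24 had no linked peak.

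The carboxylate carriers showed many fragments and moderate folds. SLC25A1 exports citrate, the carbon source of cytosolic acetyl-CoA. Its 4 peaks, all promoter-class in a gene of 3156 bp, had 14, 10, 12 and 13 fragments against input levels of 6.34, 5.70, 6.97 and 8.24. The folds were 2.04 (1.18 to 3.34), 1.64, 1.63 and 1.52, and 3 of the 4 lay below 1.76, the family's lower quartile. SLC25A10, the dicarboxylate carrier, had the highest fold of this group, 3.79 (1.998 to 6.68), from 10 fragments against 1.90 near a start site. Its exon 7 of 11 had 11 against 3.17, a fold of 2.88 (1.56 to 4.96). SLC25A11, the oxoglutarate/malate carrier, had at most 2.76, and SLC25A21, which carries oxodicarboxylates, had at most 2.78 on 2 fragments. None of the 22 peaks of the group was called, against 1.63% of all peaks. At that share a group of this size, or any group below, would hold few calls or none.

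Carriers of amino acids other than aspartate and glutamate had low folds. SLC25A15, the ornithine carrier of the urea cycle, had 4 fragments against 1.27 at a start site, a fold of 2.21 (0.922 to 4.96). In its span, 5 further summits were listed under MIR621 and 1 under TPTE2P5. SLC25A38, a glycine carrier needed for haem synthesis, had 6 against 1.90 in exon 5 of 6, a fold of 2.41 (1.10 to 4.85). SLC25A44, a carrier of branched-chain amino acids, had at most 2.21, and SLC25A29, a carrier of basic amino acids, at most 2.59 on 2 fragments. In SLC25A29, 9 further summits were listed under MIR6764. The group had 30 peaks in 4 of 5 genes and no call, against 1.63% of all peaks, and its median highest fold per gene was 2.31.

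Cofactor carriers made up the widest group, 11 genes with 117 peaks, of which 73 had their summit in the own gene. None of the 117 was called, against 1.63% of all peaks. SLC25A17, the peroxisomal carrier of coenzyme A and related cofactors, had 3 fragments against 0.0786 in exon 5 of 9, a fold of 3.71 (1.501 to 9.06) with a −log10 q of 1.23, and its start-site peak had 5 against 0.634, a fold of 3.67 (1.61 to 7.75). SLC25A20, the carnitine/acylcarnitine carrier, stayed at 3 fragments against 0.634 in exon 3 of 9, a fold of 2.45 (0.991 to 5.98).

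SLC25A51 carries NAD+ into the matrix and was assigned 36 peaks, the second-highest number of the family; SLC25A37 followed with 19 and SLC25A40 with 15. Of the 36 only 14 had their summit in SLC25A51 and 22 lay outside it, while by summits in the gene SLC25A53 held 19, SLC25A29 and SLC25A37 held 18 each, and SLC25A16 and SLC25A33 held 16 each. Exon 3 of 3 had 5 fragments against 0.786, a fold of 3.36 (1.47 to 7.09), and a 5′ UTR peak had 6 against 1.27, a fold of 3.09 (1.41 to 6.20). A 3′ UTR peak listed for it, with 9 against 1.55 and a fold of 3.92 (2.005 to 7.09), had its summit in SHB. SHB held 4 such summits and DCAF10 held 8. SLC25A52 is a near-identical copy, so reads of the pair can be shared, and both peaks listed for it had their summits in TRAPPC8. SLC25A32, which brings in folate or FAD, had 18 fragments against 11.4 in exon 2 of 7, a fold of 1.53 (0.941 to 2.37), and 17 against 10.1 in exon 5, a fold of 1.62 (0.979 to 2.53). SLC25A39 and SLC25A40 import glutathione. SLC25A39 had 16 against 10.8 in its 3′ UTR, a fold of 1.44 (0.862 to 2.29), the lowest fold of the family, and SLC25A40 had 2 against 0.0393 in a peak of 9745 bp named for exon 4 of 12, a fold of 2.89 (1.20 to 7.91).

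None of the 24 peaks of the iron carriers or the 17 of the pyrimidine nucleotide carriers was called, against 1.63% of all peaks. SLC25A37 (mitoferrin-1), which brings in iron for haem and iron-sulphur clusters, had 6 fragments against 0.550 in its 3′ UTR at chr8:23571712-23572343. The fold was 4.52 (2.07 to 9.07) and the −log10 q 1.17, just under the 1.30 that a q of 0.05 needs. SLC25A28 (mitoferrin-2) had 3 against 0.177 at a start site, a fold of 3.40 (1.38 to 8.30) with a −log10 q of 0.510. SLC25A33 had 3 against 0.0786 in exon 5 of 7, a fold of 3.71 (1.501 to 9.06) with a −log10 q of 1.23. SLC25A14, a relative of the uncoupling proteins, had the same counts in exon 10 of 12, and SLC25A36 had 2 against 0.0298 in a peak of 9275 bp named for exon 5 of 7, a fold of 2.91 (1.21 to 7.99) with a −log10 q of 0.893. SLC25A27, another uncoupling-protein relative, had 2 promoter-class peaks of 1 fragment each.

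Carriers of less settled substrate had no call among 49 peaks in 7 of 8 genes, against 1.63% of all peaks. The highest fold was in SLC25A53, with 7 fragments against 1.27 in its intron, a fold of 3.53 (1.68 to 6.80). SLC25A45 had 3 against 0.373 in a 3′ UTR peak, a fold of 2.91 (1.18 to 7.11), whose summit lies in both SLC25A45 and the overlapping FRMD8. SLC25A46, an outer-membrane member with a role in mitochondrial shape, had 9 against 3.17 in exon 8 of 8, a fold of 2.40 (1.23 to 4.34). The peaks listed for SLC25A47, a liver carrier, had their 3 summits in WARS1, and those of SLC25A34 had both in PLEKHM2.

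SLC25A2, SLC25A18, SLC25A24, SLC25A48 and SLC25A30 had no linked peak. The first 4 of these were each covered only by 1 promoter-class peak of at least 89204 bp assigned to another gene, on 1 fragment at the lowest input level, with its summit outside. SLC25A30, a relative of the uncoupling proteins, had 9 summits in its span with folds between 1.76 and 2.89. Of these 8 were listed under its antisense neighbour SLC25A30-AS1, and 1 intron peak named SLC25A30 by an ID that the list pairs with no symbol. Over the 48 genes there were 396 summits, 85 of them not linked to the gene they lie in.

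SLC25 genes were in the list more often than protein-coding genes in general. An assigned peak was present for 43 of 48 (89.6%, 77.3 to 96.5), against 72.4% of 20056 protein-coding genes. The latter were counted by gene ID alone, and counted so, SLC25A30 brings the SLC25 genes to 44. A peak on the gene's own transcript means an exon-class peak, or a UTR peak that overlaps the assigned transcript, of any width. It was present for 29 of 48 (60.4%, 45.3 to 74.2), against 49.2%. SLC25A21 counts here only through exon-class peaks of 64066 and 187218 bp, on 1 fragment each. A summit in the gene was found for 41 of 48 (85.4%, 72.2 to 93.9), against 66%. The first and the third interval lie above the background share and the second includes it. These intervals treat genes as independent draws, though all genes come from the same 2 libraries. An assigned peak was also present for 24 of 24 other mitochondrial transport genes and 15 of 15 genes of the mitochondrial import machinery. It was present for 81 of 86 of the respiratory chain and 72 of 77 mitochondrial ribosomal proteins. The list of other mitochondrial transport genes holds UCP1, UCP2, UCP3, MTCH1 and MTCH2. These are SLC25 family members under other symbols, so that list is not wholly outside the family. Of other SLC genes, which mostly act in the plasma membrane, 259 of 348 (74.4%) had a peak. On the transcript the shares were 60.4% in SLC25, 91.7% in other mitochondrial transport genes, 53.3% in the import machinery, 59.3% in the respiratory chain, 59.7% in mitochondrial ribosomal proteins and 46.6% in other SLC genes. The median gene length was 26783 bp in SLC25, against 24092.5 bp in all protein-coding genes. It was 26902.5 bp in other mitochondrial transport genes, 4185 bp in the import machinery and 8608 bp in the respiratory chain. Mitochondrial ribosomal proteins had 8618 bp and other SLC genes 38018.5 bp. The median number of peaks per gene with a peak was 8 in SLC25 and 7 in all protein-coding genes. In the other lists it was 9, 5, 4, 4 and 7, in the same order. The per-gene values below were not corrected for length or number of peaks. The median of the highest fold per gene was 2.79 in SLC25, 2.82 in other mitochondrial transport genes, 2.18 in the import machinery, 2.26 in the respiratory chain, 2.29 in mitochondrial ribosomal proteins, 2.91 in other SLC genes and 2.91 in all protein-coding genes. Of genes with a peak, those called at a q of at most 0.05 were 9.30% in SLC25, 4.17% in other mitochondrial transport genes, 0% in the import machinery, 3.70% in the respiratory chain, 4.17% in mitochondrial ribosomal proteins, 11.6% in other SLC genes and 13.2% in all protein-coding genes. The numbers called were 4, 1, 0, 3, 3, 30 and 1921 in the same order.

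Exons held a smaller share of SLC25 peaks than of all peaks. They made up 78 of 401 (19.5%, 15.7 to 23.7), against 30.4%, and introns 130 (32.4%, 27.9 to 37.2), against 26.6%. The intervals treat peaks as independent draws, though many share a gene, 64 of them SLC25A13, so they may be too narrow. Without SLC25A13 exons made up 20.8% (16.6 to 25.5) and introns 22.3% (17.9 to 27.1), so the surplus of intron peaks rested on that gene and the low exon share did not. The promoter class, within 3000 bp of a start site, held 88 peaks (21.9%), against 20.9%, and for 7 members, short genes such as SLC25A1 and SLC25A5 among them, it held every peak. 3′ UTRs held 68 (17.0%), against 13.8%, 5′ UTRs 8 (1.995%), against 2.08%, and distal intergenic positions 29 (7.23%), against 6.09%.

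**Figure D5:**
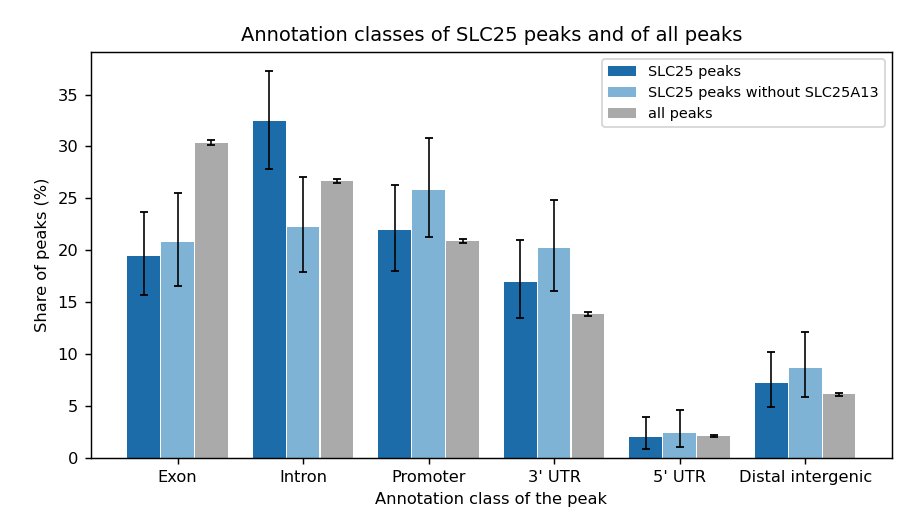
Bars give the share of peaks (%) in each annotation class for the 401 SLC25 peaks, for the 337 without SLC25A13 and for all 175546 peaks, with exact 95% binomial intervals as error bars. The intervals treat peaks as independent draws, though many share a gene. The exon share of SLC25 is below that of all peaks with and without SLC25A13, and the intron share is above it only with SLC25A13.

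Exon peaks carried more fragments than intron peaks in SLC25 as in the whole list. The 78 SLC25 exon peaks had a median of 3 fragments and a median fold of 1.94, while all exon peaks had medians of 4 and 1.94. Of the SLC25 exon peaks 2 were called (2.56%), against 2.98% of all exon peaks. The 130 intron peaks had a median of 1 fragment and a median fold of 1.83, 109 rested on a single fragment (83.8%), against 85.8% of all intron peaks. None was called, against 0.372% of all intron peaks. On the members' own transcripts there were 112 peaks with a median of 3 fragments and a median fold of 1.94. Of these 2 were called (1.79%, 0.217 to 6.31), against 2.67% of all transcript peaks, and by gene 2 of 29 (6.90%), against 12.5%. Those are the exon-class peaks of SLC25A13, 69 bp wide, and of SLC25A12, 15518 bp wide and so also covering introns.

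Of the 401 peaks, 311 (77.6%) had their summit in their own gene, 54 in another protein-coding gene and 36 in none. Hepatocyte markers were present in the list for 10 of 11 genes, APOB among them, with SERPINA1 absent. Of blood and immune markers 3 of 6 had a peak, with CD3E, HBB and PTPRC absent, and of stellate, endothelial and fibroblast markers 2 of 6, namely PECAM1 and LUM, with ACTA2, COL1A1, PDGFRB and VWF absent. PECAM1 had 17 peaks, 2 of them called, and a highest fold of 4.55, above the 3.88 of APOB, the only called hepatocyte marker and the highest of that list. LUM had 3 peaks, with a highest fold of 2.49 and none called. The total depth of the libraries is not in the list, so fragments at the summits are the only measure of precision here.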

How the data were processed

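RNA from 1 CRTC2 RIP library and 1 input library of HCCLM3 cells was compared by the authors with HISAT2 and MACS2 on hg38, per the submitters' processing notes; their versions and options are not stated in the sources used. For each peak the deposited list gives the fold (a ratio of RIP over input), a score (10 times the −log10 p, rounded down), and, in a pair of columns whose headers are spoiled, the −log10 p and −log10 q, per the file headers, column order and values. These columns belong to no single sample. Peaks in the list have a −log10 p of at least 1.30, and 88.8% have a −log10 q of 0.

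RIP fragments k and input level were recovered per peak as the whole k whose Poisson tail and fold, (k + 1)/(level + 1), met the deposited values within 0.001 of the −log10 p. This was met by 100% of peaks, with a single solution for 97.5% of all peaks and 391 of 401 SLC25 peaks, and was tested on simulated data. The lowest level stood at 10.3% of all peaks and 8.98% of SLC25 peaks. Exact Poisson intervals of k at a fixed input level gave those of the fold, so the counting error of the input is not in them. Gene spans, names and promoter windows came from RefSeq GRCh38.p14. The first or last base was the same in the list for 39 SLC25 genes.

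Members with full values were those called at q, the 12 with the highest fold on their transcript on at least 2 fragments, the 5 with the most peaks, the aspartate/glutamate, ADP/ATP, phosphate and citrate carriers, and those without a peak. Values of other members, and those of SLC25A10, SLC25A32, SLC25A39 and SLC25A53, were chosen after they were seen. The values of 1 member are not reported here. The members and lists were chosen with earlier results of these data known. No test between libraries was possible. Alternatives changed the assignment of genes, the width, fragment, fold and q limits, and left out SLC25A13 or SLC25A51. Python 3.11.15, NumPy 2.4.6, pandas 2.3.3, SciPy 1.17.1 and matplotlib 3.10.9 were used.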

Additional observations from a re-analysis of the deposited data

How the results depend on the processing

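Counts depended most on the limit set for a peak. With at least 5 RIP fragments there were 76 SLC25 peaks in 25 genes, 1 called peak in 1 gene, an exon share of 30.3% and a median fold of 2.03. With a fold of at least 4 there were 3 peaks in 3 genes, 2 called in 2 genes, an exon share of 33.3% and a median fold of 4.64, which was also the median of the highest fold per gene. With a q of at most 0.01 the 4 called peaks in 4 genes were left, with an exon share of 50%, and both medians were 4.26. On the members' transcripts only, there were 112 peaks, 2 called in 2 genes, an exon share of 69.6%, a median fold of 1.94 and a median highest fold of 2.59. Up to a width of 1 kb, 2 peaks in 2 genes were called and the median fold was 1.84. The exon share was 24.01% with the nearest start-site gene for every peak and 24.9% without promoter-class peaks. Exon shares of all peaks under these settings were not computed, so none of these shares can be set against the 30.4% of all peaks. In the whole list exon peaks had a median of 4 fragments and intron peaks 1, so a fragment limit changes the class shares there too. The limits on fold and q choose peaks by the values summarised, so the medians move there by construction; for the limits on fragments, transcript and width the cause was not tested. Leaving out SLC25A13 or SLC25A51, counting summits by gene span and adding SLC25A30 were chosen after seeing the data. Without SLC25A13 there were 337 peaks, with 3 called in 3 genes, and without SLC25A51 there were 365 peaks. By gene span there were 396 summits, with 3 called in 3 genes. The other summary values stayed close to those given above. No paired analysis was possible because each group has 1 library. With 1 library a group, the folds have no replicate error. The interval of every SLC25 peak on 1 RIP fragment includes a fold of 1. The formula fixes this for 1 fragment at every input level in the list, so it is no result about SLC25.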
